A study of Mus musculus with 6 samples.

Results

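Mouse dendritic cells (DC) carrying the adenovirus AdIkBa-SR were compared with DC carrying the control adenovirus AdOVA, both without TNFa. The comparison uses 2 of the 6 arrays of the study, 1 array for each virus. It takes in every probe set that is not a control, 22626 in all. Of these, 14906 were measured, meaning above a signal of 53.5 (the floor) on at least 2 of the 6 arrays, and they read 8927 genes. Signals under the floor were set to it. Where 1 of the compared signals was under the floor, the ratio is given as "at least" its value.

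IkBa keeps the transcription factor NF-kB out of the nucleus, and signals that activate NF-kB lead to its breakdown. The super-repressor (SR) form resists that breakdown, so NF-kB stays held back. In DC, NF-kB drives cytokine, chemokine and maturation genes, and together with interferon regulatory factors it switches on the gene of interferon beta, whose release induces antiviral genes in the same and neighbouring cells.

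The DC came from bone marrow of a female CAR-transgenic mouse 13 weeks old, per the labels. The marrow cells were expanded for 7 days and differentiated for 7 days in 250 U/ml GM-CSF. AdIkBa-SR or AdOVA was added at 1500 particles per cell for 2 h, followed by 18 h of culture. The other groups used below are AdIkBa-SR+TNFa and AdOVA+TNFa, with TNFa at 50 ng/ml for 4 h after the virus, and the untreated and TNFa groups without virus, each with 1 array made from 8 ug of total RNA. No mock transduction is recorded for the cells without virus. Nothing in the labels says whether the groups were grown as separate cultures. With 1 array per group, no difference has a replicate check, and the small number of arrays limits how precise any value can be.

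Against AdOVA, the AdIkBa-SR array read at least 2-fold lower in 9 of 20 measured cytokine genes, 10 of 28 antiviral genes induced by interferon, 9 of 11 interferon-inducible GTPases and 7 of 20 genes of DC maturation, where 4.81% of all measured genes did. In the higher direction 5 of 19 uptake receptors of immature DC were at least 2-fold apart, where 3.47% of all genes were. The lists were chosen with earlier results of these data known, so these counts are descriptions only. Il6, an acute-phase cytokine, stood at 3114 with AdOVA and 264 with AdIkBa-SR, 11.8-fold lower. Cxcl10, an interferon-induced attractant of activated T cells, stood at 7909 and 774, 10.2-fold lower. Cd93, a receptor of myeloid cells linked to the clearance of dying cells, stood at 117 and 702, 6.01-fold higher. Fewer cells of a type and less RNA per cell cannot be told apart in these bulk samples.

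Over all measured probe sets, 569 (3.82%) were at least 2-fold higher with AdIkBa-SR and 654 (4.39%) at least 2-fold lower. The counts were smaller at larger ratios, 19 higher and 50 lower at 4-fold and 2 higher and 6 lower at 8-fold. Signals of 72.8% of the probe sets lay within 1.5-fold of each other, and the median log2 ratio was -0.03. Of the probe sets at least 2-fold apart, 159 higher and 169 lower ones are bounds. Read from the brightest probe set of each gene, 310 genes (3.47%) were at least 2-fold higher and 429 (4.81%) lower. The balance of the directions depends on scaling: 46.5% of the probe sets at least 2-fold apart were the higher ones, against 65.8% when all arrays were set to equal medians.

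**Figure D1:**
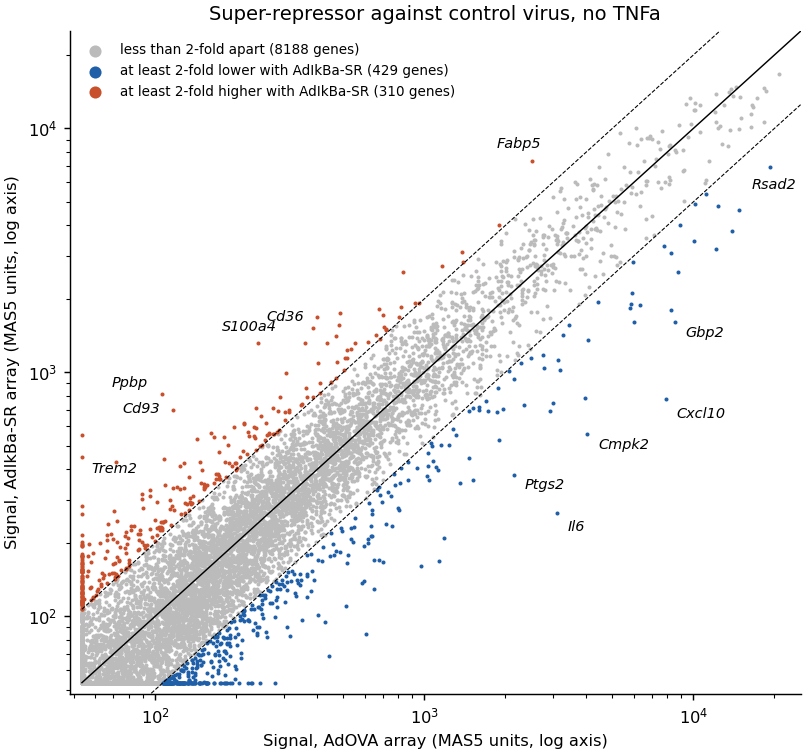
Signal of each measured gene on the AdOVA array (x axis) and on the AdIkBa-SR array (y axis), both in MAS5 units on log axes, with signals under the floor of 53.5 set to it. The solid line marks equal signals and the dashed lines 2-fold; 429 genes lie at least 2-fold below and 310 at least 2-fold above, and Il6 and Cxcl10 lie farthest below among bright genes.

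The pair of arrays differs in more than the virus. AdOVA was hybridized in the first of 2 recorded rounds and AdIkBa-SR in the second. The AdIkBa-SR array alone was washed with another fluidics protocol, which records 0 wash cycles and a first stain of 420 s; the other 5 arrays had washes of 10 and 4 cycles and 600 s of stain. Round, wash and super-repressor cannot be told apart in this pair. Its median signals were 82.6 with AdOVA and 74.4 with AdIkBa-SR, and 62.3% and 57.9% of probe sets lay above the floor. The 3' to 5' signal ratio of Gapdh was 0.880 with AdOVA and 0.802 with AdIkBa-SR. That of actin was farther apart, 1.84 with AdOVA, the highest of all arrays, and 1.36 with AdIkBa-SR. What part this had in the ratios was not tested. The pair with TNFa shares no array with the pair without TNFa and has the same round and wash on both arrays. List counts are therefore given for it as well. Its arrays differ too: the 18S ribosomal RNA signal (5' end) was 2601 on AdOVA+TNFa and 537 on AdIkBa-SR+TNFa. In the same order, median signals were 88.5 and 75.3, and 63.4% and 58.4% of probe sets lay above the floor. The 3' to 5' ratio was 1.38 and 1.09 for actin and 0.832 and 0.823 for Gapdh. These differences run in the same direction as in the pair without TNFa, apart from 18S, which was not compared above. What part they had in the counts with TNFa or in the overlap of the pairs was not tested. Genes named below for a ratio of at least 2-fold, with no values given for that pair, also reached 2-fold there on their brightest probe set, with the same sign.

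With TNFa, 806 probe sets (5.41%) were at least 2-fold higher with the super-repressor and 723 (4.85%) lower. The lower lists of both pairs shared 246 probe sets, which is 37.6% of the list without TNFa and 34.0% of the list with it. The higher lists shared 168, or 29.5% and 20.8%. Of the probe sets at least 2-fold lower without TNFa, 90.4% were also below 0 with TNFa, against 58.4% of all measured probe sets, and of those higher, 82.8% were also above 0, against 38.7% of all. Opposite directions of at least 2-fold occurred in 5 probe sets, 4 of them higher without TNFa and 1 lower. The log2 ratios of both pairs gave r = 0.527 over all measured probe sets, a description since probe sets of 1 array are not replicates, and r = 0.613 over the 4696 probe sets with all 4 signals above 200.

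By gene, 438 (4.91%) were at least 2-fold higher and 398 (4.46%) lower with TNFa. In both pairs, 98 genes (1.1%) were higher and 144 (1.61%) were lower. Genes with several probe sets gave a measure of the error within the arrays: the log2 ratio of a probe set had a spread (SD) of 0.42 over 3106 such genes and 0.31 over 899 bright ones. This covers probe noise, not variation between cultures. Where a gene was at least 2-fold lower on its brightest probe set, its second probe set was too in 43 of 118 genes, and in 35 of 52 when the gene was lower in both pairs. For higher genes these counts were 39 of 139 and 19 of 35.

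**Figure D2:**
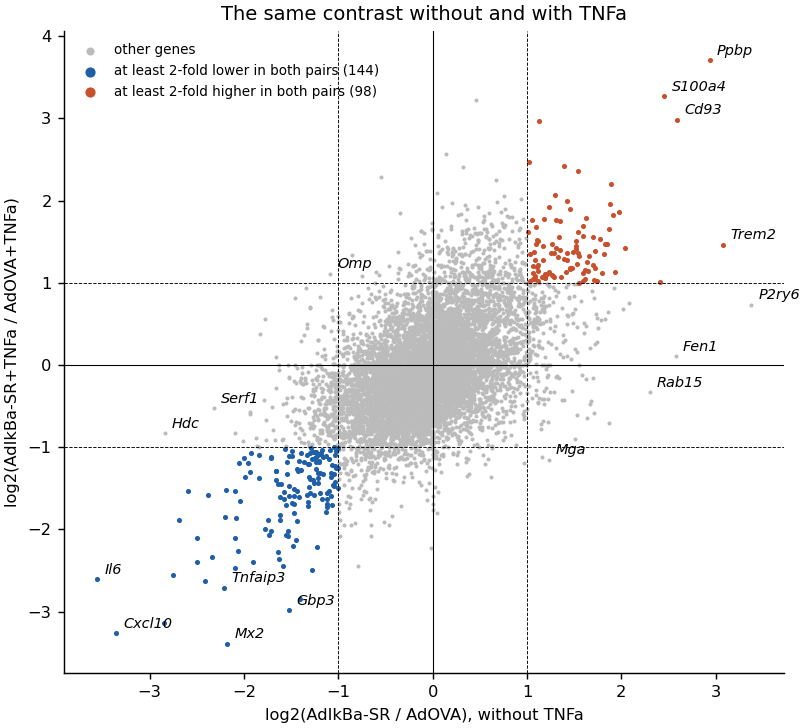
Each measured gene's log2 ratio of super-repressor over control virus without TNFa (x axis) and with TNFa (y axis), with dashed lines at 2-fold. The 144 genes at least 2-fold lower in both pairs are blue and the 98 higher are orange; Hdc, Serf1, Fen1, P2ry6 and Rab15 were at least 2-fold apart without TNFa only.

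A fit by limma to all 6 arrays gave the only p-values of this comparison. It has 5 coefficients for 6 arrays, which leaves 1 residual degree of freedom, and it assumes that the AdIkBa-SR arrays vary like the others. At an adjusted p under 0.05 it called 65 probe sets (0.436%) higher and 109 (0.731%) lower with AdIkBa-SR. The AdIkBa-SR and AdOVA signals of all 174 differed by 2-fold or more in that direction, and 90 of the lower and 44 of the higher ones were so in both pairs. The same arrays enter the fit, so this overlap is no separate check. After quantile normalization the same fit called 0 probe sets (1642 at an unadjusted p under 0.05, against 2066 on the deposited scale), so the adjusted p-values below hold on the deposited scale only. The fit did not test the difference between the pairs as such. It set the TNFa response with AdIkBa-SR against the mean TNFa response of the arrays lacking the super-repressor. That mean joins AdOVA with no virus. limma called this TNFa contrast for 0 probe sets (737 at an unadjusted p under 0.05). It cannot decide whether the pairs differed, since an unusual AdOVA response is partly averaged away and also raises the error.

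Cytokine genes were among the lowest with AdIkBa-SR. Of 20 measured cytokines, 9 were at least 2-fold lower and 0 at least 2-fold higher, with a median log2 ratio of -0.82 against -0.06 over all measured genes. With TNFa, 8 were lower and 0 higher, and 6 were lower in both pairs. Il6 read 3114 on the AdOVA array and 2749 on AdOVA+TNFa, 264 on AdIkBa-SR and 452 on AdIkBa-SR+TNFa, and 213 untreated and 326 with TNFa alone. Both control-virus arrays stood far above the other 4, and each super-repressor array stood somewhat above the array without virus at the same TNFa state. The fitted log2 difference of Il6 was -3.36 (SE 0.34, limma adjusted p = 5.9e-05), and Il6 was the only cytokine that limma called.

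The interleukin-1 genes, which encode fever-inducing cytokines of the innate response, were lower on the AdIkBa-SR array. Il1b went from 13873 with AdOVA to 3809, where the untreated array had 3788, and with TNFa it stood at 12233 and 6202, just under 2-fold apart. Il1a went from 5839 to 1907 (untreated 1275). Tnf, the gene of the cytokine used as stimulus in the study, stood at 598 and 195, 3.07-fold lower, and at 583 and 191 with TNFa. Both subunit genes of interleukin 12, which steers T cells towards the Th1 type, were lower: Il12a at 1120 and 397, and Il12b at 303 and 114. Inhba, which encodes a subunit of activin, stood at 11098 and 5361, but at 8771 and 5979 with TNFa. Ifnb1, the interferon beta gene, stood at 260 and 82.1 without TNFa and at 153 and 62.5 with it. The untreated array read 62.4 for Ifnb1, so the AdIkBa-SR signal lay little above it. The limma adjusted p-values of these other cytokines ran from 0.072 to 0.466 and none was called. Tgfb1, a suppressive cytokine, ran the other way at 618 and 874.

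Chemokines were split. Of 20 measured, 4 were at least 2-fold lower, 1 was higher, and the median log2 ratio was -0.18. The lower ones were Cxcl10, Cxcl11, Cxcl1 and Ccl4. Cxcl11, which shares the receptor of Cxcl10, stood at 1138 with AdOVA and 168 with AdIkBa-SR, and at 928 and 159 with TNFa (limma adjusted p = 0.0009). Its other probe set is dim, 79.0 and 9.10, and adds little. Cxcl1, a neutrophil attractant, stood at 3011 and 749 without TNFa and, under 2-fold apart, at 2638 and 1393 with it (adjusted p = 0.003). Ccl4, a monocyte attractant, stood at 3126 and 1127, and its TNFa pair was close together at 1935 and 1694.

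The chemokine that was higher, Ppbp, is a platelet basic protein. Its signals were 347 untreated, 106 with AdOVA and 812 with AdIkBa-SR, and 56.4 and 735 in the TNFa pair, which made it the gene with the largest ratio in the higher direction among those above the floor on both arrays with at least 1 signal of 200 or more (7.66-fold, limma adjusted p = 0.00045). Pf4, the other platelet chemokine of the list, stood at 5349 and 9550, and Ccl17, an attractant of Th2 cells, at 546 and 1029. Of the erythroid and megakaryocyte markers, 8 were measured, 0 were at least 2-fold higher and 1 lower (Gp9, a platelet glycoprotein, 138 and under the floor at 18.9, with 102 and 132 in the TNFa pair), and their summed signal was 6441 with AdOVA and 10642 with AdIkBa-SR, nearly all of it from Pf4. Their part in the Ppbp ratio was not tested. With TNFa, 6 chemokines were at least 2-fold higher with the super-repressor and 3 lower, so the balance within the list was not the same in both pairs.

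Antiviral genes induced by interferon were among the lower genes. Of 28 measured, 10 were at least 2-fold lower and 0 higher, the median log2 ratio was -0.78, and 26 were below 0. With TNFa 17 were lower, 0 higher, and the median was -1.10. Beside Cxcl10, which the list shares with the chemokines, the largest ratio belonged to Cmpk2, a mitochondrial nucleotide kinase. Cmpk2 had signals of 212 untreated, 4036 with AdOVA and 558 with AdIkBa-SR, 7.23-fold lower, and 3333 and 377 in the TNFa pair (limma adjusted p = 0.00025). Oasl1, of the oligoadenylate synthetase family, stood at 237, 3971 and 782 in the same order, and at 4396 and 870 with TNFa (adjusted p = 0.00067). Both genes stayed well above the untreated signal with AdIkBa-SR. Ifit1, Ifit2 and Ifit3, which bind viral RNA or its complexes, were 3.34-fold to 4.57-fold lower, with AdIkBa-SR signals of 1803, 1613 and 1894 against 903, 624 and 769 untreated. Rsad2, an antiviral enzyme and one of the brightest genes, stood at 19264 with AdOVA and 6952 with AdIkBa-SR, and Isg20, an RNA exonuclease, at 2775 and 1042, but at 1402 and 860.5 with TNFa. limma called 8 of the 28 as lower.

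The interferon-inducible GTPases, which attack the membranes of intracellular pathogens, had the lowest median of the 23 pathway lists. Of 11 measured, 9 were at least 2-fold lower, all 11 were below 0, and the median was -1.47. With TNFa all 11 were at least 2-fold lower, with a median of -2.22, and limma called 7 in the pair without TNFa. Gbp2 read 8536 on AdOVA and 7201 on AdOVA+TNFa, 1605 on AdIkBa-SR and 1166 on AdIkBa-SR+TNFa, and 1425 and 1447 on the arrays without virus. The super-repressor arrays lay just above and below the arrays without virus, and both probe sets of Gbp2 had the same ratio (log2 -2.41 and -2.31, limma adjusted p = 0.0012 and 0.001). Mx2 stood at 428 and 94.4 and Mx1 at 617 and 199.6; both encode dynamin-like antiviral proteins. Gbp7, Gbp3, Ifi47 and Gbp6 were 2.72-fold to 3.12-fold lower. Irgm1, a regulator of the family, had the smallest difference, 1127 and 642.

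**Figure D3:**
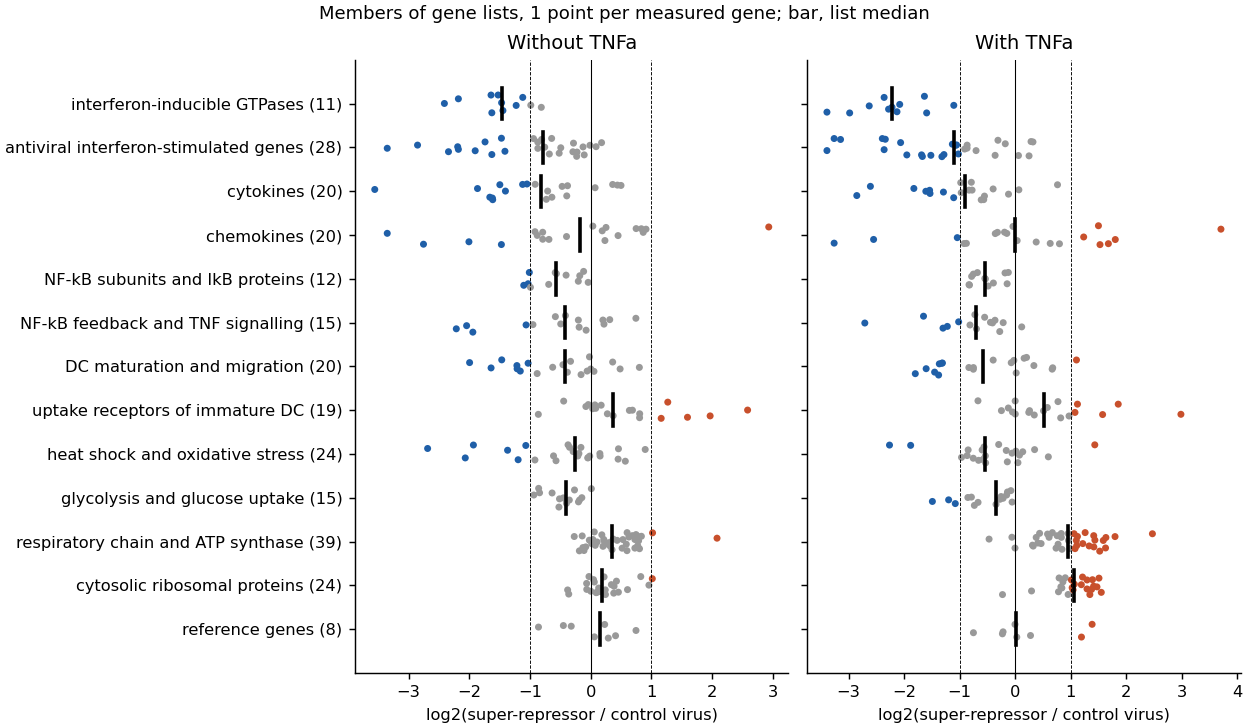
Members of 13 gene lists, 1 point per measured gene, by log2 ratio of super-repressor over control virus without TNFa (left) and with TNFa (right); blue and orange points are at least 2-fold lower or higher, black bars are list medians, and the number of measured genes stands in brackets. The interferon-inducible GTPases lie farthest to the left in both panels, and the uptake receptors are the list with 5 members at least 2-fold higher and 0 lower without TNFa.

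Of 21 measured IRF, STAT and receptor genes of the interferon response, 1 was at least 2-fold lower and 0 higher, and with TNFa 4 were lower and 0 higher. With all arrays set to equal medians, 0 were lower and 1 was higher without TNFa. The gene that was lower in both pairs was Stat2, a subunit of the factor that type I interferon activates, at 687 with AdOVA and 315 with AdIkBa-SR (264 untreated). Irf1, another of the 4, stood at 979 and 513 without TNFa and at 1329.6 and 600.4 with it, and Irf7, the factor that amplifies interferon production, had a log2 ratio of -0.05 without TNFa.

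Genes of the NF-kB system itself were lower by small amounts. Of 12 measured subunits, IkB proteins and kinases, 3 were at least 2-fold lower and 0 higher, but 0 were at least 2-fold lower with TNFa or, without TNFa, with all arrays set to equal medians. All 12 were below 0, with a median of -0.57, and the median with TNFa was -0.54. Bcl3, a nuclear IkB protein, stood at 255 and 119, and at 447 and 251 with TNFa. Nfkbib, the gene of IkBb, stood at 770 and 382, and at 754 and 692 with TNFa. Relb, a subunit of the alternative pathway, read 109 and under the floor (18.2), and 266 and 158 with TNFa. Rela, which encodes the main activating subunit, stood at 646 and 571, and limma called 0 of the 12. Nfkbia, the gene of IkBa, was lower on each of its 4 probe sets, with log2 ratios from -1.53 to -0.69, and at -0.76 to -0.06 with TNFa. Whether any of these probe sets reads the transgene of AdIkBa-SR is not known, so they check nothing about its delivery. The probe set called by limma had 5338 with AdOVA and 1849 with AdIkBa-SR (adjusted p = 0.041).

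Feedback genes that NF-kB induces included larger differences. Of 15 measured, 4 were at least 2-fold lower and 0 higher, and the same 4 were among 5 that were lower with TNFa. Tnfaip3 encodes A20, an enzyme that ends NF-kB signalling. It read 512 on AdOVA and 1462 on AdOVA+TNFa, 110.3 on AdIkBa-SR and 224 on AdIkBa-SR+TNFa, and 162 and 189 on the arrays without virus. The AdIkBa-SR signal was the lowest of the 6, and the log2 ratios were -2.21 without and -2.71 with TNFa (limma adjusted p = 0.003). Traf1, an adaptor of TNF receptors, stood at 652 and 170 (adjusted p = 0.011), and Birc3, an inhibitor of apoptosis, at 2293 and 1097. Fas, a death receptor, stood at 221 and under the floor, at least 4.13-fold lower. Mir155hg, the host transcript of a microRNA of activated immune cells, stood at 585 and 137 and, with TNFa, at 732 and 132.

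Maturation genes were lower in part. Of 20 measured genes of DC maturation and migration, 7 were at least 2-fold lower and 0 higher, with a median of -0.42. With TNFa 7 were lower and 1 higher, and 6 were lower in both pairs. Ccr7, the receptor that guides mature DC to lymph nodes, had signals of 195 untreated, 402 with AdOVA and 101 with AdIkBa-SR, and 516 and 200 in the TNFa pair (limma adjusted p = 0.0093). Its signal with AdIkBa-SR was lower than on the untreated array. Il15ra, which presents interleukin 15 to lymphocytes, stood at 515 and 165 (adjusted p = 0.042). Cd274, the inhibitory ligand PD-L1, stood at 8949 and 4005, against 3758 untreated, and Icam1, an adhesion molecule, at 815 and 352. The costimulatory gene Cd40 stood at 143 and 61.8. Cd86, a costimulatory gene too, did not follow: it read 1155 and 1140.4.

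Prostaglandin synthesis was represented by Ptgs2, the inducible cyclooxygenase, which read 2148 on AdOVA and 4210 on AdOVA+TNFa, 379.9 on AdIkBa-SR and 799.7 on AdIkBa-SR+TNFa, and 239 and 803 on the arrays without virus. With TNFa the super-repressor array lay close to the array without virus, while without TNFa it stood above the untreated one. Its second probe set gave 2379 and 395, and limma's adjusted p-values were 0.0012 and 0.00045. Ptges, the next enzyme of the same route, stood at 1153 and 503, and at 1973 and 1136 with TNFa. Of the 11 measured genes of the list these 2 were at least 2-fold lower and 0 higher without TNFa, and Ptgs2 alone with it.

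**Figure D4:**
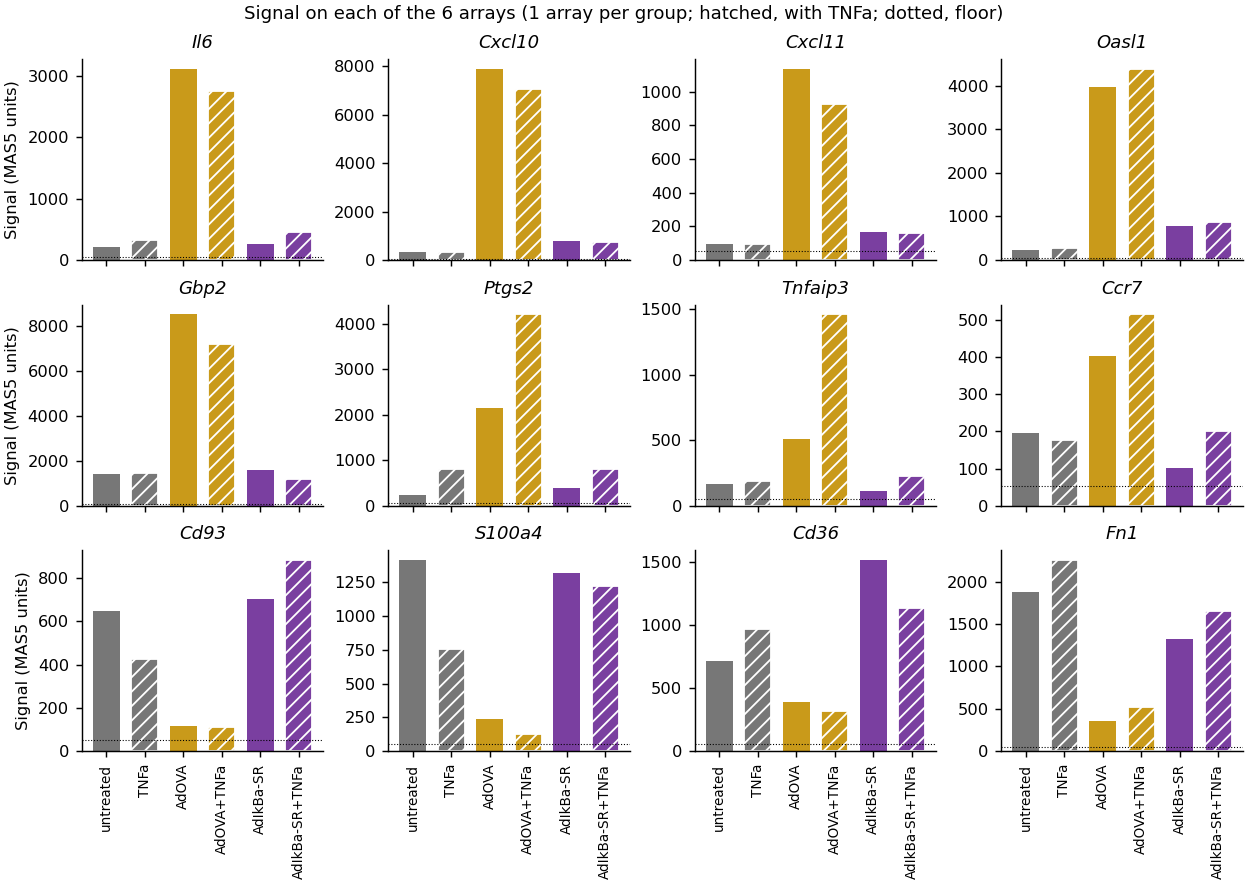
Signal in MAS5 units on each of the 6 arrays for 12 genes, 1 bar per array with no error bar because each group has 1 array; hatched bars are arrays with TNFa and the dotted line is the floor of 53.5. In the upper 8 genes the 2 AdOVA bars are the tallest, for example 3114 and 2749 for Il6, and in the lower 4 the 2 AdOVA bars are the shortest.

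Stress genes were lower in part. Of 24 measured, 6 were at least 2-fold lower and 0 higher, with a median of -0.25. The heat-shock genes Hspa1a and Hspa1b, which encode near-identical chaperones whose probes may share signal, stood at 443 and 68.7, and at 700 and 167. Sod2, the mitochondrial superoxide dismutase and a target of NF-kB, stood at 12384 and 4794, and Cdkn1a, an inhibitor of the cell cycle, at 3270 and 1428. With TNFa the pair of Hspa1 genes was at least 2-fold lower and 1 gene was higher; Sod2 stood at 6550 and 4441, and Cdkn1a at 3652 and 2418. Averaged over probe sets, 3 of the 24 were lower without TNFa. Of 24 immediate-early genes and phosphatases, 4 were at least 2-fold lower and 2 higher, and with TNFa 2 were lower and 1 higher. Junb, a subunit of the AP-1 factor, stood at 681 and 169.5 (limma adjusted p = 0.003), while Myc and Egr1 of that list were 2.28-fold and 2.20-fold higher. Egr1 stood at 167 and 236 with TNFa.

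Genes of varied function were also among those with the largest ratios in the lower direction. Hdc, which encodes the enzyme that makes histamine, stood at 605 and 84.3, 7.17-fold lower, but at 418 and 236 with TNFa. Of the other 8 measured mast cell and basophil markers, Cpa3 was at least 2-fold higher (275 and 561, and 286 and 558 with TNFa) and 0 were lower, and the summed signal of the list was 1879 with AdOVA and 2071 with AdIkBa-SR. Hamp, the gene of the iron hormone hepcidin, stood at 969 and 161 and on a second probe set at 863 and 100.3. Gja1, the gap junction protein connexin 43, stood at 1182 and 209, and all 6 of its probe sets were lower. Selenbp1, a selenium-binding protein, stood at 597 and 140. Serf1 stood at 649 and 130 without TNFa, and at 268 and 186 with it, so its difference was small in the TNFa pair. Of genes that read under the floor with AdIkBa-SR, Cldn3 (279 with AdOVA), Stc2 (246), Nr5a1 (229) and Pcp4 (228) were at least 4.26-fold lower. Nr5a1 stood at 160.3 and 90.3 with TNFa, and the mean log2 ratio over the probe sets of Cldn3 was -0.72, under 2-fold.

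Uptake receptors, which take up microbes and dying cells, were among the genes in the higher direction. Of 19 measured uptake receptors of immature DC, 5 were at least 2-fold higher and 0 lower, the median was 0.37, with TNFa 5 were higher and 0 lower, and 4 were higher in both pairs. Cd93 read 117 on AdOVA and 112 on AdOVA+TNFa, 702 on AdIkBa-SR and 884 on AdIkBa-SR+TNFa, and 650.2 untreated and 427 with TNFa alone. Both AdOVA arrays were lowest, and the super-repressor arrays lay above both arrays without virus (fitted log2 2.45, SE 0.35, limma adjusted p = 0.0011). Its dimmer probe set gave 55.5 and 124. Cd36, a scavenger receptor for oxidized lipids, stood at 386 and 1514 and on a second probe set at 242 and 1191 (adjusted p = 0.0021 and 0.00074). C5ar1, the receptor of complement fragment C5a, stood at 236 and 715. Clec10a, a lectin, was at least 2.41-fold higher, and Mertk, a receptor for dying cells, stood at 152 and 339, but at 284 and 285 with TNFa. The macrophage markers, of which 8 were measured, had 1 member at least 2-fold higher (Mertk), a median of 0.46, and summed signals of 16044 with AdOVA and 16116 with AdIkBa-SR. Their part in these receptors' ratios was not tested.

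Among single genes, S100a4, a calcium-binding protein linked to motility, read 240.1 on AdOVA and 127 on AdOVA+TNFa, 1315 on AdIkBa-SR and 1219 on AdIkBa-SR+TNFa, and 1414 and 753 on the arrays without virus. The ratio was 5.48-fold without and 9.63-fold with TNFa (limma adjusted p = 0.00047). Fn1, the matrix protein fibronectin, stood at 361 and 1319 (adjusted p = 0.0066), but its second probe set is dim and gave 63.5 and 79.2. Of the stromal markers 5 were measured, and the other 4 had log2 ratios from -0.44 to -0.05. Fabp5, a fatty-acid carrier and one of the brightest, stood at 2523 and 7350 and on a second probe set at 868 and 4021. Lgmn, a protease of antigen processing, stood at 485 and 1746, and Cd200r1, an inhibitory receptor, at 470 and 1414. Eps8, which organizes actin, stood at 142 and 535, but the log2 ratios of its 3 probe sets ran from 0.14 to 1.91. Emp1, a membrane protein, stood at 116 and 334 and was not called by limma. Slc25a5, which carries ADP and ATP across the inner mitochondrial membrane, stood at 834 and 2572, and all 8 of its probe sets were higher, with log2 ratios from 0.38 to 1.74.

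Some of the largest ratios in the higher direction rest on 1 probe set or 1 pair. Trem2, a lipid receptor of macrophages, read 46.0 with AdOVA and 451 with AdIkBa-SR, at least 8.43-fold higher, while its other probe set read 118 and 53.1, the opposite direction. P2ry6, a nucleotide receptor, was at least 10.4-fold higher at 556, with 282 and 469 in the TNFa pair. Fen1, a nuclease of DNA replication, stood at 71.6 and 427 without TNFa and under the floor against 57.7 with TNFa. Rab15, a regulator of vesicle traffic, read under the floor and 264, and the reverse order, 408 and 325, with TNFa. Dck, Pld4, Cdk18 and 5031439G07Rik were at least 3.55-fold higher as well. Dck read 92.5 and 148 with TNFa, another of its probe sets had a log2 ratio of -0.33 without TNFa, and the mean over its probe sets was 0.81, under 2-fold. Rab15, Cdk18 and Pld4 were not called by limma, with fitted log2 differences of 1.55, 1.51 and 1.61 (SE 0.60, 0.48 and 0.43).

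Genes of energy metabolism did not share a direction. Of 39 measured genes of the respiratory chain and ATP synthase, 2 were at least 2-fold higher and 0 lower, close to the 3.47% of all genes, and the median was 0.35. Atp5b, the catalytic subunit of ATP synthase, stood at 398 and 1686, against 1749 untreated, but at 1098 and 1853 with TNFa, and Atp5g1, a subunit of its rotor, at 249 and 505. With TNFa 17 of the 39 were at least 2-fold higher and the median was 0.95. Cytosolic ribosomal proteins had a median of 0.19 without and 1.05 with TNFa, with 1 and 15 of 24 members at least 2-fold higher. The signal of 18S ribosomal RNA (5' end) was 2601 on the AdOVA+TNFa array, which enters the second value of each list, 234 on AdOVA, 340.4 on AdIkBa-SR and 537 on AdIkBa-SR+TNFa, and the part of that array in the larger medians was not tested. Genes of glycolysis and glucose uptake had a median of -0.40, with 14 of 15 below 0 and 0 at least 2-fold apart, and with TNFa 3 were at least 2-fold lower. Of 22 measured cell cycle genes, 3 were at least 2-fold higher and 0 lower: Top2a, a DNA topoisomerase (56.2 and 177), Rrm2 (under the floor and 151) and Cdk4 (129 and 265). With TNFa 2 were higher and 2 lower, with Rrm2 under the floor and at 106 and Cdk4 at 183 and 262. Averaged over each gene's probe sets, 0 of the 22 were at least 2-fold higher without TNFa.

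Each of the remaining lists had at most 2 members at least 2-fold apart in the pair without TNFa. Cholesterol synthesis had 0 of 14 in either pair and MHC class I processing 1 of 14 lower (Tap1, which carries peptides into the endoplasmic reticulum, 873 and 428), with 2 lower with TNFa. MHC class II presentation had 1 of 12 higher (Lgmn), and 3 with TNFa. Of 15 pattern-recognition receptors, 2 were lower without TNFa, and 1 was lower and 1 higher with it. Clec4e, a receptor for fungal glycolipids, stood at 14715 and 4629, and at 9924 and 5284.5 with TNFa. Of 16 survival and apoptosis genes, 2 were lower without TNFa, while 0 were lower and 1 was higher with it. Casp4, an inflammatory caspase, stood at 1887 and 526, and at 1071 and 538 with TNFa, just under 2-fold apart. Of 11 SOCS and other cytokine feedback genes, 2 were higher without TNFa, 0 with TNFa, and 0 without TNFa when averaged over probe sets. They were Socs6, under the floor and at 124, and Ptpn6, a phosphatase that restrains cytokine receptors, at 265 and 565; with TNFa the signals were 109.5 and 109 for Socs6 and 685 and 690 for Ptpn6. Of 8 reference genes 0 were at least 2-fold apart without TNFa and 2 were higher with it: Actb read 13538 and 14139 without TNFa, and Hprt 748 and 878 without and 274 and 715 with TNFa.

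Most markers of DC identity had log2 ratios below 0, few of them by 2-fold or more. Of 12 measured, 10 were below 0, 2 were at least 2-fold lower (Ccr7 and Zbtb46) and 1 higher. Their median log2 ratio was -0.35. With TNFa 1 was at least 2-fold lower and 1 higher, and the median was -0.006. Zbtb46, a DC transcription factor, stood at 147 and under the floor at 11.3, and at 112 and 77.2 with TNFa. Itgax, the CD11c gene, stood at 247 with AdOVA and 664 with AdIkBa-SR, and H2-Aa, an MHC class II gene, at 1169 and 825. Flt3, a receptor of DC progenitors, was not measured. Granulocyte markers were present on both arrays: of 11 measured, 2 were at least 2-fold higher (Prtn3 and Ltf), the median was 0.42, and their summed signal was 31836 with AdOVA and 39700 with AdIkBa-SR. With TNFa 7 of the 11 were at least 2-fold higher. Of 10 T cell markers, Cd3e, Cd3d, Cd3g, Cd4 and Cd2 were not above the floor on 2 arrays, nor were Pax5 and Cd79b of B cells or Ncr1 of NK cells. The T cell list had 3 measured members with a summed signal of 2933 with AdOVA and 3925 with AdIkBa-SR; Il7r made up most of it, and Cd28 was at least 2-fold higher (87.4 and 206, and 88.0 and 146 with TNFa). Of 5 B cell, 5 NK cell and 4 plasmacytoid DC markers measured, 0 were at least 2-fold apart, with summed signals of 1018 and 827, 428 and 333, and 8571 and 6282. What part these cells had in the results was not tested.

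Genes that differed with AdOVA were also read in a way that keeps the choice apart from the measurement. Genes were chosen on the AdOVA+TNFa and TNFa arrays and then read on AdIkBa-SR and AdOVA, which share no array with the choice. The AdOVA+TNFa array was hybridized in the second round and the TNFa array, without mock transduction, in the first. Virus, round and procedure cannot be told apart in that choice. The 47 genes at least 4-fold higher with AdOVA+TNFa than with TNFa had a median log2 ratio of AdIkBa-SR over AdOVA of -1.53, with 30 at least 2-fold lower and 0 higher. The 22 genes at least 4-fold lower had a median of 1.03, with 12 at least 2-fold higher and 0 lower. At 2-fold, the 933 probe sets higher with AdOVA+TNFa had a median of -0.55 and 26.5% were at least 2-fold lower. The 738 lower ones had a median of 0.61 and 25.5% were at least 2-fold higher. In the other 13235 probe sets the median was -0.03, with 3.04% lower and 2.83% higher.

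Set against the untreated array, the super-repressor signals of these genes lay between untreated and control virus in most cases. Of the 47 genes, 36 lay between, 10 were still at least 2-fold above the untreated signal and 8 were below it. Their median log2 ratio over untreated was 1.80 with AdOVA and 0.54 with AdIkBa-SR. For the 22 genes it was -1.43 and -0.15, and 17 lay between. Nos2, the inducible nitric oxide synthase, stood at 151 untreated, 640 with AdOVA and 213 with AdIkBa-SR. Uba7, the activating enzyme for Isg15 conjugation, stood at 410, 1020 and 375. Idh1, a cytosolic dehydrogenase that makes NADPH, stood at 1543, 436 and 1316. Of the 47 genes, 3 were higher with AdIkBa-SR than with AdOVA: Mmp13, Trim30d and Aif1l, the last 2 by log2 ratios of 0.05 and 0.09. Mmp13, a collagenase, stood at 777 untreated, 2688 with AdOVA and 4301 with AdIkBa-SR. The untreated array was hybridized in the first round and had no mock transduction, so the virus cannot be told apart from the procedure in these levels.

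**Figure D5:**
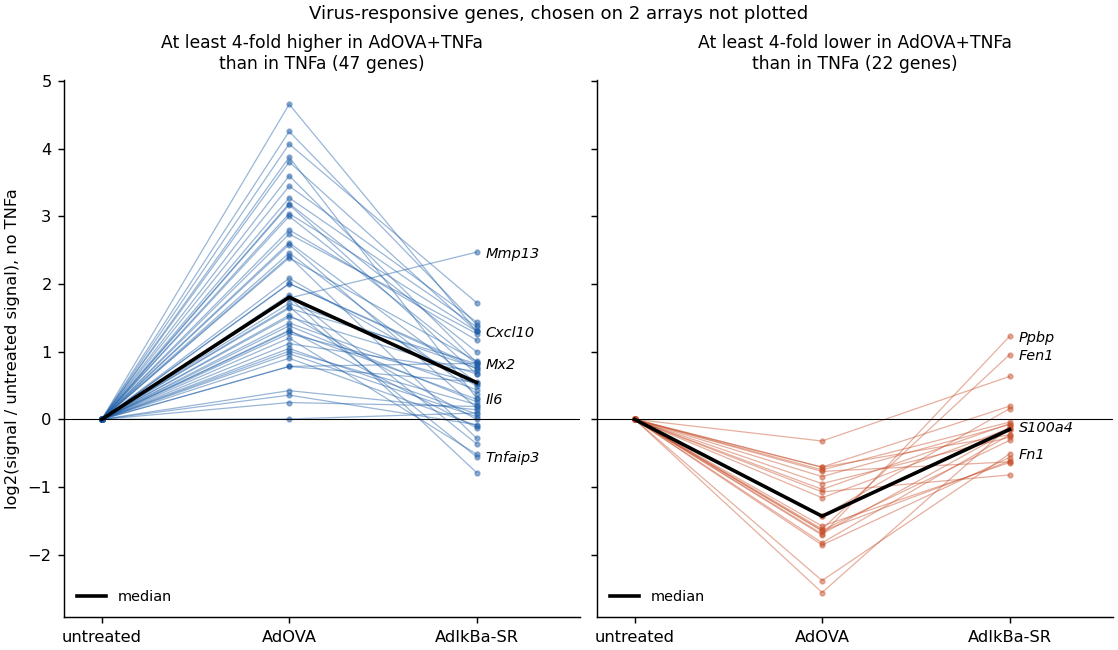
log2 ratio to the untreated array for the 47 genes at least 4-fold higher (left) and the 22 genes at least 4-fold lower (right) in AdOVA+TNFa than in TNFa, read on the AdOVA and AdIkBa-SR arrays, 1 thin line per gene with the median in black. The median of the first set goes from 1.80 with AdOVA to 0.54 with AdIkBa-SR and that of the second from -1.43 to -0.15; 3 lines of the first set rise from AdOVA to AdIkBa-SR, and that of Mmp13 rises most.

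Promoters were examined because the lower genes include known targets of NF-kB and of interferon. The motifs searched, on both strands of the 250 bases before each RefSeq start (GRCm38.p6), were the core of the interferon-stimulated response element, GAAANNGAAA, and the usual degenerate NF-kB motif. Of 7253 measured genes with a promoter, 3.39% held the interferon core and 10.9% the NF-kB motif. Of the genes at least 2-fold lower in both pairs, 121 had a promoter, and 15 of them (12.4%) held the interferon core and 21 (17.4%) the NF-kB motif. Of the 83 such genes in the higher direction, 1 (1.20%) and 2 (2.41%) did. For the genes lower without TNFa, whatever the other pair, the shares were 5.97% and 14.0%, and for the higher ones 3.15% and 8.27%. These are descriptions of letters in a window, not of binding.

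The promoters of 5 genes are printed to show what these matches look like beside the values above: 2 with an interferon core, 3 with an NF-kB motif, and S100a4 as a gene of the higher direction with neither. Each is the 250 bases before the RefSeq start (GRCm38.p6), 5' to 3' on the gene's strand, with matches to either motif in capitals. In Cxcl10 (chr5:92348890-92349139, minus strand) the interferon core begins 213 bases before the start, and NF-kB matches begin 159, 104 and 103 bases before it, the last 2 overlapping. In Il6 (chr5:30012864-30013113, plus strand) an NF-kB match begins 44 bases before the start. In Gbp2 (chr3:142620413-142620662, plus strand) the interferon core, on the opposite strand, begins 59 bases before. In Tnfaip3 (chr10:19015411-19015660, minus strand, the first of 2 starts) NF-kB matches begin 125 and 12 bases before. S100a4 (chr3:90603520-90603769, plus strand) has no match.
Cxcl10: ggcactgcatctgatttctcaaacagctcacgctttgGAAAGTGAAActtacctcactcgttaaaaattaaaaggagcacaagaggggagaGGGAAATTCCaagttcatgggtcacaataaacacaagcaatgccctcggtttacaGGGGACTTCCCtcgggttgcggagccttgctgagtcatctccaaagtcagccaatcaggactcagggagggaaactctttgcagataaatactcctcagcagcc
Il6: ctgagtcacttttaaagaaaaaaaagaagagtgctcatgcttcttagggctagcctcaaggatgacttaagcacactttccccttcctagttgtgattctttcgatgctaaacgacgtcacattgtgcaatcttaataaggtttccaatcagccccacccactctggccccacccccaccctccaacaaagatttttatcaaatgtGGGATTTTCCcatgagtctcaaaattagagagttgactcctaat
Gbp2: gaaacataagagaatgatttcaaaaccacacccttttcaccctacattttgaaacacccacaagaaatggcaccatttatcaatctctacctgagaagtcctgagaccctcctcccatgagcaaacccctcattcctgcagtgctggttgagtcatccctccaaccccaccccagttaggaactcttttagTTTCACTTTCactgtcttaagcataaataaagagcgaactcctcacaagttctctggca
Tnfaip3: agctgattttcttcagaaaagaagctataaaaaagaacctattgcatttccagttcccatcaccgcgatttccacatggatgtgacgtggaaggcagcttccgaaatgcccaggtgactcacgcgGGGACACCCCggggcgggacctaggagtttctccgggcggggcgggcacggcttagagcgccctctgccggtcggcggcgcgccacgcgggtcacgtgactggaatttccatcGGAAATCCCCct
S100a4: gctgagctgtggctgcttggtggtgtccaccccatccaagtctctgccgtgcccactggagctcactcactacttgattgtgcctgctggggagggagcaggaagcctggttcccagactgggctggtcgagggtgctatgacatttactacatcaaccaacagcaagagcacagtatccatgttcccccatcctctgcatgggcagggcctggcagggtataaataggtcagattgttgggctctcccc
Cxcl10 thus holds both motifs, and its ratios were 10.2-fold without and 9.57-fold with TNFa. Lower genes without any match in their windows include Cmpk2 and Ptgs2, so not every lower gene held a match. Whether matches and ratios went together gene by gene was not tested. Of higher genes, Ppbp, Cd36 and Trem2 had no match in their windows either, while the NF-kB motif was found at 1 of 2 starts of Lgmn and, as overlapping matches, at 1 of 4 starts of Rab15.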

How the data were processed

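Total RNA of 6 groups of mouse DC was read on Affymetrix MOE430A arrays, 1 per group, and groups were taken from the sample titles. The authors deposited 1 signal (intensity, linear scale) per probe set, computed by MAS5 according to the submitters' processing notes, which give no version here. Wash settings and rounds of hybridization come from the deposited array headers, per the file headers. It lists 22690 probe sets, 64 of them controls. Among the rest, 20380 have 1 gene symbol, 691 several and 1555 none in the platform annotation, which was used for names.

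Signals were not rescaled, since the 2% trimmed mean ran from 198.5 to 198.7. Values under 53.5, the 40th percentile of all signals, were set to it before taking log2, which compresses ratios of dim genes. Each gene takes the value of the brightest probe set that carries its symbol alone. With 1 array per group, ratios have no test. limma 3.58.1 (R 4.3.3; lmFit, eBayes with trend, Benjamini-Hochberg) was fitted to all 6 arrays with 3 virus states, 1 TNFa response shared by untreated and AdOVA cells and 1 in AdIkBa-SR cells, so its spread is how far the first 2 TNFa responses differ. A fitted difference uses all arrays and can differ from the pair's ratio. The counting and limma steps were tested on simulated data in which all arrays varied alike. That cannot check the assumption that the AdIkBa-SR arrays vary like the others.

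Named genes were the 12 per direction with the largest ratio without TNFa (both signals above the floor, 1 at 200 or more), 5 per direction with the dim signal under the floor, the 12 per direction with the largest smaller ratio of both pairs, genes with opposite ratios, and members of 23 pathway and 10 marker lists. Of the lists' 493 symbols, 424 are named in the annotation. Members and lists were chosen with earlier results of these data known. Nos2, Uba7, Idh1, Mmp13 and the promoters printed were picked after their values were seen. Alternatives were other scalings, floors of 20 and 100, a pseudocount of 16, no filter, bright probe sets only, means over probe sets, and other limma models.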

Additional observations from a re-analysis of the deposited data

Results flagged for a closer look

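A few genes had opposite ratios of at least 2-fold in the pairs without and with TNFa. Omp, an olfactory marker protein, stood at 131 with AdOVA and 61.4 with AdIkBa-SR (log2 -1.09), but under the floor and at 115 in the TNFa pair (log2 1.11). Mga, a Max-binding factor, stood at 69.7 and 164 (log2 1.23), and at 211 and 95.1 with TNFa (log2 -1.15). Tmx2, a thioredoxin-related membrane protein, stood at 155 and 347 (log2 1.16), and at 497 and 229 with TNFa (log2 -1.12). The TNFa contrast of limma, which averages AdOVA with no virus, was not called for any of them (adjusted p = 0.99, 0.97 and 0.97). That contrast is not the difference between the pairs, so it does not decide whether these opposite ratios differ. Averaged over each gene's probe sets, the log2 ratios without TNFa were -0.54, 0.69 and 0.64. No group has more than 1 array, so no array could be tested as far from its group.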

How the results depend on the processing

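The number of probe sets at least 2-fold higher without TNFa was 569 on the deposited scale, 863 with equal medians, 312 with a floor of 100, 1145 with a floor of 20 and 226 at a mean signal of 200 or more. For lower ones it was 654, with 334, 1767 and 255 at the floors of 100 and 20 and the signal minimum. Probe sets higher in both pairs numbered 168, with 331, 110, 282 and 86 under equal medians, the floors of 100 and 20 and the signal minimum. Those lower in both numbered 246, with 159 under equal medians, 513 at a floor of 20 and 146 at the signal minimum. Equal medians moved the median log2 ratio of all probe sets with TNFa from -0.12 to 0.06, and without TNFa from -0.03 to 0.07. The median of probe sets at least 2-fold higher with AdOVA+TNFa than with TNFa was -0.80 at the signal minimum in place of -0.55. Under the other alternatives it moved by less than 0.2. limma's 65 higher and 109 lower calls became 25 and 30 with equal medians, 0 and 0 with quantile normalization, 132 and 234 in an additive model, 33 and 64 without the trend, and 7 and 23 at a floor of 100. The last tests fewer probe sets; the cause of the other differences was not tested. The prostaglandin list had a median of -0.26 without TNFa and 0.017 with it. Ratios were recomputed for genes named by the size or the opposite signs of their ratios. Of these 141 recomputed ratios, 133 stayed at least 2-fold in the same direction, 8 were under 2-fold and 0 reversed. List members outside that choice were not recomputed singly. Of 69 list medians recomputed on the arrays without TNFa, 68 moved by less than 0.2 and 1 moved by more. Among the 68, that of cholesterol synthesis crossed 0, from -0.04 to 0.12 with equal medians. The MHC class II median went from -0.16 to 0.53 with TNFa. Of 184 recomputed counts of list members at least 2-fold apart, 43 moved by over 1.5 times, 21 of them among the 138 without TNFa. Examples are NF-kB genes (3 to 0 lower with equal medians) and, averaged over probe sets, cell cycle genes (3 to 0 higher) and stress genes (6 to 3 lower). No paired analysis was possible because the labels give no replicate numbers and each group has 1 array, and no array could be left out. Dim probe sets limit all counts: 159 of the higher and 169 of the lower ratios are bounds.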

Other observations

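A list of 32 genes that low oxygen induces was written after values of this comparison had been seen, and some of them were picked from the lower genes. That choice made the list low, so the values below describe it and support nothing. Of 29 measured, all 29 were below 0, 16 were at least 2-fold lower and 0 higher, and the median log2 ratio was -1.14. With TNFa 17 were lower, the median was -1.11, and 13 were lower in both pairs. The summed signal of the list was 41880 untreated, 81829 with AdOVA and 44243 with AdIkBa-SR. In the TNFa arrays it was 44243 without virus, 73155 with AdOVA and 43693 with AdIkBa-SR.

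Bnip3, a mitochondrial protein of autophagy and cell death, stood at 1797 untreated, 5798 with AdOVA and 1836 with AdIkBa-SR. Ero1a, which forms disulphide bonds in the endoplasmic reticulum, stood at 3202, 8243 and 3080. Egln3, an enzyme that marks hypoxia-inducible factor for breakdown, stood at 1191, 3434 and 1567. Fam162a had 1819, 8763 and 2574, but did not reach 2-fold lower in the TNFa pair. Ddit4, an inhibitor of mTOR signalling, had 453, 1236 and 505. Kdm3a, a histone demethylase, had 431, 1034 and 412. Slc2a1, the glucose transporter, stood at 2541, 4600 and 2539, and Vegfa, a growth factor of blood vessels, at 413, 671 and 431. The last ones were less than 2-fold apart.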
